A study of Mus musculus with 12 samples.

Results

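Gene-level read counts were compared between B16 F1 tumors grown in the brains of mice that carried no other tumor, after anti-PD-1 plus anti-CTLA-4 (called therapy) or after IgG, the control antibody. The libraries were chosen by their labels for tumor presence (intracranial tumor) and treatment, which gave 6 of the 12 libraries of the series, 3 for each treatment. All mice were C57BL/6, each received 100000 B16 F1 cells in the brain, and the tumors were taken at day 9. The other 6 libraries came from mice that bore an extracranial tumor as well, again 3 with IgG and 3 with therapy, and they enter here for the estimate of the spread and for a test of the difference between both therapy effects. The title of the series states its question: whether the efficacy of this antibody pair in melanoma of the brain depends on disease outside the brain. B16 F1 is an established pigmented mouse melanoma line, implanted here rather than arising in the animal, and the tissue was lysed whole, without sorting. The series text calls the samples biological triplicates. Antibody dose and schedule are not given in the sources used here. Replicates are numbered in accession order, so a number only names a library.

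PD-1 and CTLA-4 are receptors that restrain T cells, and antibodies against them release that restraint. Activated T cells and natural killer cells secrete interferon-gamma, which induces guanylate-binding proteins, T cell chemokines and the genes of antigen presentation in tumor and myeloid cells. A tumor dissected from the brain can also hold neurons, myelin, astrocytes and microglia of the host. Totals ran from 18427495 to 22294182 reads in the 6 libraries, and mitochondrial genes took 0.814% to 1.35% of the reads. Of the 47069 genes in the table, 15925 were tested. On the first principal component of all 12 libraries, the therapy libraries lay at -103.64, -113.02 and -95.04 and the IgG libraries at -14.42, 13.15 and 15. A library from a mouse with both tumors, IgG replicate 2, lay at -115.07, apart from its own group at 35.62 and 54.65, and near the intracranial-only therapy libraries. Whether its label is right was not tested. It shares in the pooled estimate of the spread and in the comparison with mice that bore both tumors.

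The pigment genes checked the tissue label. Dct, an enzyme of melanin synthesis, stood at 3971, 3818 and 4819 FPKM (a level scaled by gene length and library size) in the IgG libraries and at 4585, 3340 and 3500 FPKM in the therapy libraries. Pmel, which builds the fibrils of the melanosome, stood at 2361, 2990 and 3290 FPKM under IgG and at 3196, 2165 and 2608 FPKM under therapy. The groups overlapped for both genes. All 16 pigment genes tested overlapped between the groups, with a median log2 fold change, therapy against IgG, of -0.033 beside -0.026 over all genes tested. Mitf, the master transcription factor of melanocytes, had a log2 fold change of -0.06 ± 0.27 (SE, n = 3 and 3), and Tyr, the first enzyme of melanin synthesis, one of -0.07 ± 0.20. Each SE was derived from the test statistic of a fit over all 12 libraries, so it rests on their pooled spread. Sox10, a lineage factor shared by melanocytes and oligodendrocytes, stood between 789 and 874 CPM (read counts scaled to library size, here with TMM factors) in all 6 libraries. A pair of receptors of the lineage had wider estimates, Kit at 0.45 ± 0.34 and Ednrb at -0.67 ± 0.43.

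Across all genes, no gene passed an adjusted p of 0.05 in the pooled fit of edgeR's quasi-likelihood test over 12 libraries (0 of 15925, 0%). The smallest adjusted p was 0.134, and 2151 genes had an unadjusted p under 0.05, 1746 of them lower under therapy (11% of the genes tested) and 405 higher (2.54%). The fit of the 6 libraries alone called 839 of 14560 genes, 824 lower (5.66%) and 15 higher (0.103%). Without the both-tumor IgG replicate 2, the pooled fit called 1002 genes, 993 lower and 9 higher. DESeq2 on the same 12 libraries called 969 lower and 61 higher, and limma with voom called 0, with 1254 genes at an unadjusted p under 0.05. The direction below is therefore given with each library's value, and a call is named with the fit that made it. As a plain description, all 3 therapy libraries lay below all 3 IgG libraries for 2290 genes (14.4%) and above them for 1399 (8.78%). Scaled by library totals without TMM factors, these counts were 2587 and 973.

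Genes of brain tissue were lower more often than genes at large. In 10 lists of neuron, synapse, channel, glia and microglia genes, 127 of 158 genes tested (80.4%) had all 3 therapy libraries below all 3 IgG libraries, against 14.4% of all genes, and 0 had them above. Their median log2 fold change was -2.86, and the fit of 6 libraries alone called 98 of them lower. Without IgG replicate 2, 136 of the 158 were lower in this sense, against 18.9% of all genes. A pair of brain lists stood apart and is not in that count: genes of reactive astrocytes, with 3 of 12 lower, and genes of the ependyma and choroid plexus, with 1 of 4 tested lower and a median of -0.496. With both included, 131 of 174 genes were lower (75.3%). Mitochondrially encoded genes, read as a sign of RNA quality, were lower in the same direction: 8 of 8 had a fitted fold change below 0, and 4 of 8 did not overlap. Their summed level was 8098 to 12390 CPM under IgG and 7534 to 8352 CPM under therapy, and their part in the brain gene values was not tested. In bulk tissue, fewer cells of a type and less RNA per cell cannot be told apart.

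**Figure D1:**
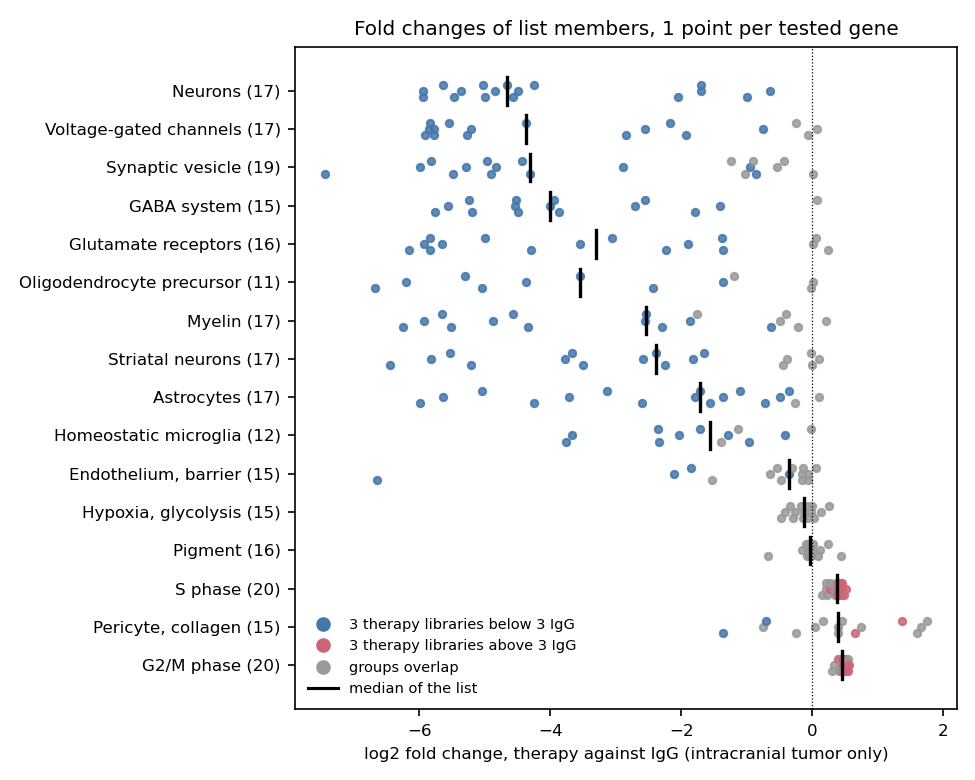
Log2 fold change of therapy against IgG (x axis) in mice with the intracranial tumor only, 1 point per tested gene, for 16 lists (y axis, with the number of genes tested). Blue and red points are genes whose 3 therapy libraries lay all below or all above the 3 IgG libraries, and black bars are list medians: -4.66 for neurons, -0.033 for pigment genes and 0.463 for the G2/M phase.

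Neuronal genes had the lowest median of these lists. All 17 were lower in every therapy library than in any IgG library (against 14.4% of all genes). Their median log2 fold change was -4.66 (53.7% of all genes had a fitted fold change below 0). The 6-library fit called 16 of them. Snap25, a SNARE protein of synaptic vesicle fusion, stood at 72.2, 24.9 and 88.5 CPM under IgG and at 2.16, 0.384 and 0.507 CPM under therapy, a log2 fold change of -5.94 ± 1.39 (SE) with an adjusted p of 0.134 in the pooled edgeR fit and 0.00905 in the 6-library fit. IgG replicate 2 was the lowest of its group, yet more than 10 times the highest therapy library. Syt1, the calcium sensor of transmitter release, stood at 37.2, 15.3 and 64.9 CPM under IgG and at 1.82, 0.493 and 0.0921 CPM under therapy. Rbfox3, the gene of the neuronal nuclear antigen NeuN, had 663 reads in the IgG group and 15 in the therapy group. Therapy replicate 1 held the highest therapy level of all 3 genes. The list was not uniform: Map2, a dendritic microtubule protein, had a log2 fold change of -2.05 ± 0.65, and Tubb3, a tubulin of neurons and of many tumors, one of -0.64 ± 0.24, with 127, 177 and 129 CPM against 86.8, 94.7 and 95.7 CPM.

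Genes of the synapse followed the neuronal ones. Of 19 genes of vesicles and their release, 13 did not overlap, all lower (against 14.4% of all genes). The median log2 fold change was -4.30. Amph, a protein of vesicle endocytosis, had 398 reads in the IgG group and 2 in the therapy group, a ratio of 203 (95% interval 55.8 to 1680, counting error only). Syn1, a phosphoprotein that tethers vesicles, stood at 17.4, 9.03 and 25.7 CPM under IgG and at 0.553, 0.657 and 0.138 CPM under therapy. Cplx1, which clamps the fusion machinery, stood at 29.3, 11.6 and 34.5 CPM against 1.05, 0.219 and 0.0921 CPM. In all 3 genes the groups were far apart, with IgG replicate 2 the lowest IgG library.

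Transmitter receptors and ion channels gave the same picture. Among glutamate receptor genes, 13 of 16 did not overlap, all lower (against 14.4% of all genes). The same number passed in the 6-library fit, with a list median of -3.30. Grin2a, an NMDA receptor subunit, stood at 4.9, 2.27 and 8.86 CPM under IgG and at 0.111, 0.11 and 0.0461 CPM under therapy. Camk2a, the kinase that NMDA receptors activate, stood at 68.9, 36.1 and 164 CPM against 3.1, 1.1 and 0.599 CPM. In the GABA system, 14 of 15 genes did not overlap, with a median of -4.00. Gad1, which makes GABA, stood at 16.1, 15.5 and 11.6 CPM against 1.88, 0.986 and 0.138 CPM, and here IgG replicate 3, not replicate 2, was the lowest of its group. Of 17 voltage-gated channel genes, 14 did not overlap, all lower, and the median was -4.36. Kcna2, a potassium channel of axons, stood at 8.85, 3.3 and 13.4 CPM against 0.277, 0.164 and 0 CPM.

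Genes of striatal projection neurons, the main neurons of the striatum, were lower less uniformly. Of 17 tested, 12 did not overlap, all lower (against 14.4% of all genes), and the median was -2.38. Ppp1r1b, which encodes the dopamine-regulated phosphatase inhibitor DARPP-32, stood at 25, 3.87 and 13 CPM under IgG and at 1.11, 1.53 and 0.645 CPM under therapy, so the IgG libraries spread widely. Adcy5, the adenylyl cyclase of these neurons, stood at 11.7, 2.63 and 12.5 CPM against 0.94, 0.931 and 0.507 CPM. Adora2a, the adenosine receptor of the indirect pathway, was tight in the IgG group only, at 1.84, 2.06 and 1.83 CPM against 0.277, 0.493 and 0.829 CPM. Pdyn, the dynorphin precursor, had 31 reads under IgG and 0 under therapy. Bcl11b, a transcription factor of both striatal neurons and T cells, stood at 5.63, 2.37 and 7.04 CPM against 0.442, 0.219 and 0.414 CPM. Its order of libraries was that of the neuronal genes, not that of the T cell genes described further on.

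Myelin and oligodendrocyte genes split into a lower part and a level part. Of 17 myelin genes, 12 did not overlap, all lower (against 14.4% of all genes), with a median log2 fold change of -2.53. Mobp, a structural myelin protein, stood at 58.5, 17.6 and 47.6 CPM against 1.49, 0.493 and 0.0921 CPM. Mag, the adhesion protein of the inner myelin wrap, had a log2 fold change of -4.88 ± 1.05, and Mog, the outermost myelin protein, had 102 reads against 1. Mbp overlapped, at 264, 179 and 347 CPM under IgG and 181, 231 and 149 CPM under therapy (-0.50 ± 0.41), and so did the connexin gene Gjc3 (0.22 ± 0.21). Of 11 genes of oligodendrocyte precursors, 8 did not overlap, all lower. Olig1, a transcription factor of the lineage, stood at 12.2, 10.6 and 24.9 CPM against 0.498, 0.0548 and 0.0921 CPM, and Olig2, its partner, had 237 reads against 2. Bcas1, a marker of early myelinating cells, had a log2 fold change of -3.54 ± 0.90, and Pdgfra, the growth factor receptor of the precursors, one of -1.36 ± 0.55.

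Of 17 astrocyte genes, 15 did not overlap, all lower (against 14.4% of all genes), with a median of -1.70. Gfap, the intermediate filament of astrocytes, stood at 191, 158 and 287 CPM under IgG and at 16, 19.9 and 12.6 CPM under therapy (log2 fold change -3.71 ± 0.73). Slc1a2, the main glutamate transporter, stood at 65.6, 42.2 and 152 CPM against 2.38, 1.1 and 0.645 CPM, and Slc1a3, the second such transporter, at 25.9, 33.3 and 46.7 CPM against 1.82, 1.21 and 0.23 CPM. Aqp4, the water channel of astrocyte endfeet, was narrow in both groups, at 22, 19.5 and 34.3 CPM against 4.15, 3.94 and 4.38 CPM. The 4 genes passed in the 6-library fit of edgeR, with adjusted p-values from 0.00865 to 0.00869, and none of their groups overlapped. Mlc1, a membrane protein of the endfeet, had a log2 fold change of -5.63 ± 1.31, and Clu, the chaperone clusterin, one of -3.13 ± 0.76, whereas the connexin Gja1 overlapped (0.10 ± 0.19). Of 12 genes of reactive astrocytes, 3 did not overlap, all lower, against the same 14.4% of all genes. Serpina3n, a protease inhibitor, stood at 34, 22.2 and 29.1 CPM against 5.53, 14.7 and 6.82 CPM. S1pr3, a sphingosine-1-phosphate receptor, stood at 7.64, 9.03 and 10.1 CPM against 3.04, 2.96 and 3.22 CPM, and Osmr, the oncostatin M receptor, had a log2 fold change of -0.86 ± 0.19.

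Homeostatic microglia genes were lower as well. Of 12 tested, 9 did not overlap, all lower (against 14.4% of all genes), with a median of -1.55. In the 6-library fit 3 passed. Sall1, the transcription factor that sets microglia apart from other macrophages, stood at 2.84, 3.3 and 3.28 CPM under IgG and at 0.221, 0.329 and 0.138 CPM under therapy. Siglech, a lectin of microglia, had 66 reads against 5. Cx3cr1, the fractalkine receptor, stood at 5.79, 9.03 and 8.49 CPM against 1.88, 1.53 and 1.2 CPM, and its neuronal ligand Cx3cl1 at 14.7, 17.4 and 33.1 CPM against 2.99, 4.66 and 2.81 CPM. In these genes IgG replicate 2 was not the lowest IgG library. P2ry12, the purinergic receptor of ramified microglia, was less separated, at 1.63, 2.12 and 1.88 CPM against 0.221, 0.712 and 1.34 CPM, and Tmem119 overlapped, at 3.16, 7.69 and 4.78 CPM against 3.71, 1.42 and 0.829 CPM. Macrophage genes took another course: 0 of 16 were free of overlap (14.4% of all genes were lower without it and 8.78% higher). Cd68, a lysosomal protein of phagocytes, stood at 13.6, 35.2 and 13.7 CPM against 15.3, 13.2 and 20.4 CPM, highest in IgG replicate 2, and Lyz2, lysozyme, at 49.8, 263 and 60.9 CPM against 91.7, 43 and 71.5 CPM.

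The 31 genes of these 10 brain lists that were not lower in every library included genes of high level. In the IgG libraries they stood at a median of 29.2 CPM, and the 127 others at 10.4 CPM. In the therapy libraries the medians were 24.6 and 0.575 CPM. That contrast is partly set by the split itself, which was made by therapy and IgG levels. Syt4, a synaptotagmin of secretory granules, ran from 789 to 996 CPM over the 6 libraries, Scn8a, a sodium channel, from 129 to 196 CPM, and Gria4, an AMPA receptor subunit, from 11.6 to 21.6 CPM. Sox10, Mbp and Gjc3 are the like among the genes of oligodendrocytes. A list's summed level follows them: the neuronal list summed to 438 to 859 CPM under IgG and to 147 to 156 CPM under therapy, but the precursor list, which holds Sox10, to 843 to 989 CPM and 837 to 892 CPM.

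**Figure D2:**
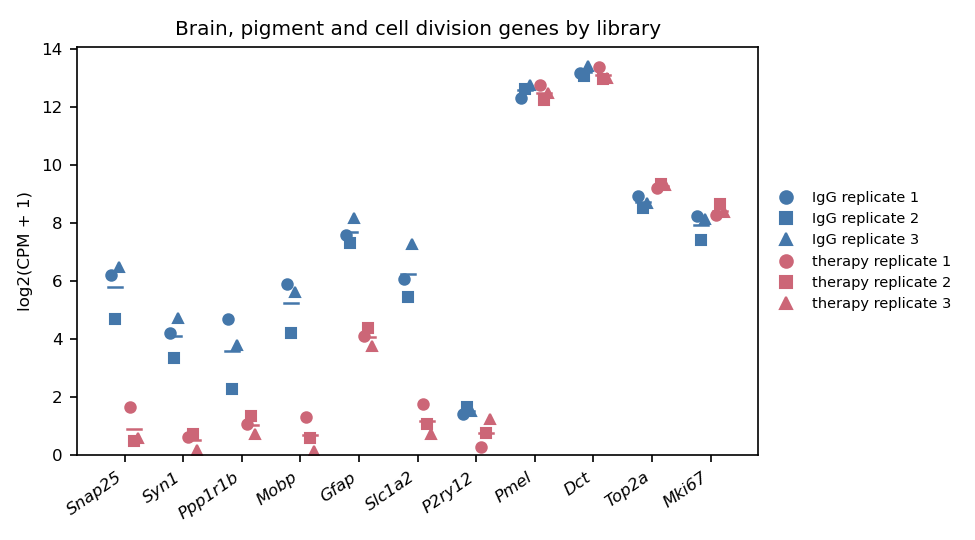
Level of 11 genes in each library, as log2(CPM + 1), blue for the 3 IgG and red for the 3 therapy libraries, with a bar at each group's mean of these log values. The brain genes from Snap25 to P2ry12 are lower in all 3 therapy libraries, Pmel and Dct overlap, and Top2a and Mki67 are higher in all 3 therapy libraries.

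Among the named genes past an unadjusted p of 0.05 with a group mean of at least 1 CPM and no overlap, 1257 genes were lower, 21 of them with 0 reads under therapy, and 304 were higher. Gene models with number or clone names, pseudogenes, receptor gene segments and mitochondrially encoded genes were left out of these counts. The largest fitted values belong to genes with 0 reads, where they depend on the prior count, so bounds are given. Miat, a long noncoding RNA, had 288 reads in the IgG group and 0 in the therapy group, at least 97.8-fold lower. Calb1, the calcium buffer calbindin, was at least 39.1-fold lower (115 and 0 reads), Cnih3, an auxiliary AMPA receptor protein, at least 50.9-fold (150 and 0) and Hapln2, a matrix protein of the node of Ranvier, at least 44.8-fold (132 and 0). Each bound sets 3 reads over the therapy group in place of 0. IgG replicate 3 carried most of the Miat reads, at 12.7 CPM beside 1.58 and 1.08 CPM, and without it the bounds were 25.7 for Miat, 20.2 for Calb1, 32.3 for Cnih3 and 31.8 for Hapln2. Lmo3, a transcription cofactor, had 522 reads against 1, but only 0.929 CPM in IgG replicate 2 beside 11.2 and 15.7 CPM in the other IgG libraries.

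The blood vessels split. Slco1c1, a thyroid hormone transporter of the blood-brain barrier, had 231 reads under IgG and 2 under therapy. Cldn5, the tight junction protein of that barrier, stood at 13.3, 14.8 and 20.4 CPM under IgG and at 2.49, 6.63 and 2.12 CPM under therapy, a log2 fold change of -2.11 ± 0.67 (adjusted p = 0.0387 in edgeR's 6-library fit). General endothelial genes stood closer: Pecam1 at 17.1, 18.7 and 19.7 CPM against 12.8, 15.7 and 15.2 CPM (-0.35 ± 0.16), and Cdh5 at 19.2, 26.2 and 27 CPM against 19.3, 23.6 and 22.1 CPM (-0.15 ± 0.21). Flt1, a VEGF receptor, had a log2 fold change of -0.64 ± 0.33 with overlap. In all, 4 of 15 endothelial and barrier genes did not overlap, all lower (against 14.4% of all genes), with a median of -0.347. Ackr1, a chemokine receptor of venules, stood at 2.05, 2.63 and 1.56 CPM against 0.0553, 0.493 and 0.138 CPM. Among pericyte genes, Kcnj8, a potassium channel, stood at 3.37, 3.1 and 3.28 CPM against 0.608, 2.63 and 0.553 CPM, and Rgs5, a signaling regulator, had a log2 fold change of -0.71 ± 0.32. Therapy replicate 2 was the highest therapy library for Cldn5, Ackr1 and Kcnj8.

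Collagen genes were highest in therapy replicates 1 and 3. Col1a1 stood at 41.8, 61.4 and 13.8 CPM under IgG and at 251, 50.7 and 92.8 CPM under therapy, so the groups overlapped (log2 fold change 1.76 ± 1.09). Col3a1 overlapped as well, at 21.5, 65.1 and 16.8 CPM against 182, 51.4 and 81 CPM. Col6a1, a collagen of the pericellular matrix, did not overlap, at 7, 10 and 10.8 CPM against 38.3, 11.1 and 22.9 CPM, with an adjusted p of 0.169 in the 6-library fit of edgeR.

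On the higher side stood genes of cell division, by small amounts. Of 20 genes of the G2/M phase, all had a fold change above 0 (46.3% of all genes did), with a median log2 of 0.463, and in 11 of 20 the 3 therapy libraries lay above the 3 IgG libraries (8.78% of all genes did). Of 20 genes of the S phase, the same held of 12, with a median of 0.386. Without IgG replicate 2 the medians were 0.346 and 0.309, and 22 of the 40 genes lay above in this sense, against 12.7% of all genes. Top2a, which unlinks replicated chromosomes, stood at 487, 364 and 412 CPM under IgG and at 593, 649 and 628 CPM under therapy, a log2 fold change of 0.57 ± 0.30, and it was the only gene of both lists past the 6-library threshold of edgeR (adjusted p = 0.0389). Mki67, the Ki-67 proliferation antigen, stood at 300, 167 and 280 CPM against 308, 397 and 330 CPM, with the highest IgG library just below the lowest therapy library. Ccnb1, cyclin B1, stood at 120, 76.3 and 94.5 CPM against 146, 147 and 126 CPM.

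The smallest p-values of the mitotic list belonged to Top2a, to Cenpe, a kinetochore motor (log2 fold change 0.51 ± 0.27), and to Tpx2, a spindle factor (0.53 ± 0.29). Of the replication genes, Mcm2 and Mcm4, subunits of the replicative helicase, had log2 fold changes of 0.42 ± 0.34 and 0.49 ± 0.27, and Fen1, a flap nuclease, one of 0.52 ± 0.29. The members overlapping between the groups were nearer to 0, such as Birc5, survivin (0.30 ± 0.37), and Gins2, a helicase partner (0.15 ± 0.24). IgG replicate 2 was the lowest IgG library in 34 of 40 cell division genes, against 44.1% of all genes. The same library was the highest of all in 92 of 97 T cell, interferon and antigen presentation genes, and its level of neuronal genes was the lowest of the IgG group. Whether either has a part in the cell division values was not tested.

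Many genes of the G2/M phase carry CCAAT boxes, bound by NF-Y, together with a cell cycle homology region, bound by the DREAM and MuvB complexes, close to the start of transcription. In windows from 250 bases before to 50 after the RefSeq start site (GRCm38.p6), 16 of the 20 genes matched a promoter. The letters CCAAT (either strand) were found in 14 of the 16 (87.5%), against 41.1% of the 27025 genes in that table. The letters TTTGAA (either strand) were found in 11, against 20.2%, and both together in 11 (68.8%), against 7.97%. For the 17 replication genes with a window, CCAAT was found in 11 (64.7%), TTTGAA in 3 (17.6%) and both in 2 (11.8%). A match in letters is a description of the window and no evidence of binding. The promoters of Cdc20, the activator of the anaphase complex (chr4:118437327-118437416, minus strand), and Mki67 (chr7:135716452-135716587, minus strand) are shown because they hold both elements within a short stretch, given 5′ to 3′ in the direction of the gene with the CCAAT and TTTGAA letters of either strand in capitals.
Cdc20: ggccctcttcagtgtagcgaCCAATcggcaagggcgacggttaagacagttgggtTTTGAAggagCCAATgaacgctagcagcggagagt
Mki67: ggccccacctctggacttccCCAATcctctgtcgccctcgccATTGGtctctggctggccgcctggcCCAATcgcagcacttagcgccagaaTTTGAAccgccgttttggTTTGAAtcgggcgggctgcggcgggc
Cdc20 itself stood at 102, 74.2 and 85 CPM under IgG and at 121, 127 and 109 CPM under therapy (log2 fold change 0.46 ± 0.38).

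A few of the 304 genes on the higher side are given here, from those with the largest fold changes. Olfml2a, an olfactomedin-like matrix protein, stood at 0.685, 0.929 and 0.752 CPM under IgG and at 2.93, 1.37 and 3.45 CPM under therapy (log2 fold change 1.71 ± 0.55). Ccn4, a matricellular Wnt target, stood at 2.37, 2.27 and 1.5 CPM against 9.29, 2.79 and 5.76 CPM, and Heyl, a Notch target, had a log2 fold change of 1.35 ± 0.45. Hspg2, the basement membrane proteoglycan perlecan, had one of 0.69 ± 0.29 and Adam19, a membrane metalloprotease, one of 0.71 ± 0.31. Therapy replicate 2 was the lowest therapy library for Olfml2a and Ccn4, and no group overlapped.

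The 15 genes that the 6-library fit of edgeR called higher included Top2a. Atad2, a chromatin ATPase of S phase, stood at 146, 113 and 142 CPM against 192, 210 and 187 CPM. Angptl2, a secreted angiopoietin-like protein, stood at 94.8, 87.3 and 86.9 CPM against 172, 136 and 126 CPM, and Emp1, an epithelial membrane protein, at 40.1, 35.6 and 38.6 CPM against 73.7, 56 and 54.4 CPM. Atad2 and the remaining named ones were chosen after their values were seen. The remaining ones are Srebf2, the transcription factor of cholesterol synthesis (399, 344 and 362 CPM against 532, 498 and 488 CPM) and Fads2, a fatty acid desaturase (log2 fold change 0.53 ± 0.25). In each of these genes the 3 therapy libraries lay above the 3 IgG libraries.

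Interferon-response genes were highest in 1 library of each group. IgG replicate 2 and therapy replicate 3 were both above the other 4 libraries in 60 of 62 genes of interferon-gamma response, type I interferon response and MHC class I and II (96.8%), against 8.88% of all genes tested. In these 62 genes, 0 had the therapy libraries all below the IgG libraries and 1, Calr, a chaperone of class I assembly chosen after its value was seen, had them all above. Without IgG replicate 2, the therapy libraries lay all above the remaining IgG libraries in 22 of the 62 (35.5%), and in 35 of 97 (36.1%) with T cell and cytotoxic genes added, against 12.7% of all genes. That count leaves out the high IgG library and keeps the high therapy library, so it gives no direction. A matching count without therapy replicate 3 was not taken. The interferon-gamma list had a median of 3.58 without IgG replicate 2 and of -3.60 without therapy replicate 3. Gbp2, a guanylate-binding GTPase, stood at 5.48, 543 and 6.29 CPM under IgG and at 5.25, 21.7 and 453 CPM under therapy. Ifit1, an antiviral protein of the type I response, stood at 6.48, 140 and 5.32 CPM against 6.14, 5.59 and 64.3 CPM. In each gene the high library of either group stood several times above the remaining ones, which overlapped.

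**Figure D3:**
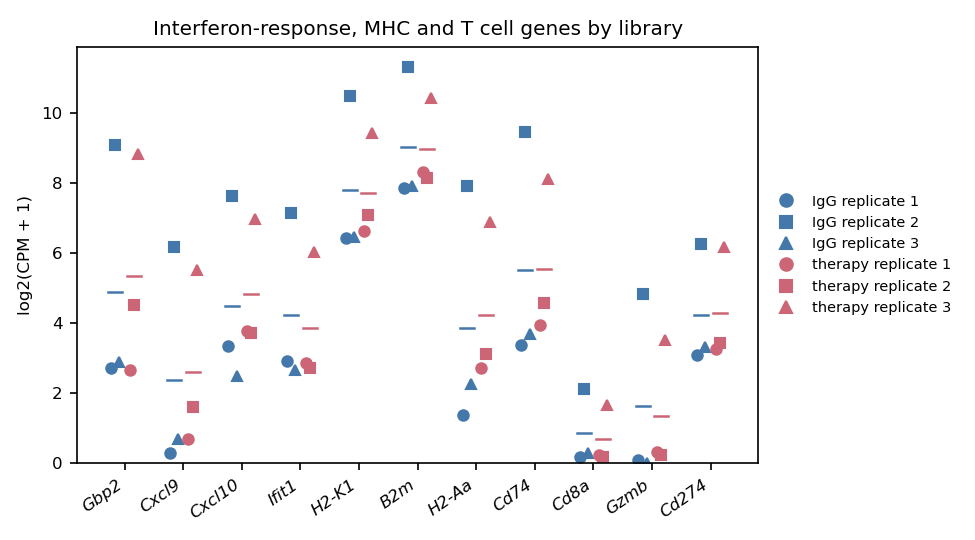
Level of 11 interferon-response, antigen presentation and T cell genes in each library, as log2(CPM + 1), with a bar at each group's mean of these log values. IgG replicate 2 (blue square) and therapy replicate 3 (red triangle) lie above the other 4 libraries in all 11 genes.

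Many of these genes carry an interferon-stimulated response element, the site bound by transcription factors of interferon signaling. The letters GAAA, any 2 bases and GAAA again (either strand) were found in the promoter window of 9 of 14 interferon-gamma response genes with a RefSeq window (64.3%), in 9 of 15 type I response genes (60%), in 4 of 13 MHC class I genes (30.8%) and in 1 of 7 MHC class II genes (14.3%), against 3.99% of all 27025 genes. The letters TTC, any 3 bases and GAA of a gamma-activated site (either strand) were found in 6 of the 14, 3 of the 15, 1 of the 13 and 0 of the 7, against 9.55% of all. The stretches around the element are shown for 4 genes whose values set the pattern, each in the direction of the gene with the element of either strand in capitals: Gbp2 (chr3:142620584-142620633, plus strand), Ifit1 (chr19:34640765-34640833, plus strand), Isg15, a ubiquitin-like protein (chr4:156200855-156200916, minus strand), and Cxcl10 (chr5:92349073-92349122, minus strand), all of GRCm38.p6.
Gbp2: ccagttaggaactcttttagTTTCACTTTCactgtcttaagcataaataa
Ifit1: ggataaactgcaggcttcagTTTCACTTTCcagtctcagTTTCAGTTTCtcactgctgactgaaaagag
Isg15: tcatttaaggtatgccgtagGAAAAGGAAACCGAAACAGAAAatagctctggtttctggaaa
Cxcl10: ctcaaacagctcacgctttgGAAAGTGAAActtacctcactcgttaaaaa
Isg15 holds 3 overlapping matches and Ifit1 holds 2. Isg15 stood at 6.95, 172 and 5.1 CPM under IgG and at 4.76, 5.64 and 58.3 CPM under therapy, the same 2 libraries being high.

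The sign of the interferon-gamma and MHC lists depended on how the libraries of a group were averaged. The median log2 fold change of the interferon-gamma list was -0.540 from group means of counts and 0.189 from means of log2 CPM, and it was 3.58 without IgG replicate 2 and -3.60 without therapy replicate 3. For MHC class II the same 4 values were -0.884, 0.048, 3.30 and -3.61. The type I list kept its sign between both averages, at -1.019 and -0.393. It stood at 1.82 without IgG replicate 2 and at -3.165 without therapy replicate 3. No direction can be read from a list that 1 library of each group decides. Cxcl9, a chemokine that draws T cells, stood at 0.211, 71 and 0.591 CPM against 0.608, 2.03 and 44.6 CPM, and Cxcl10, its relative, at 9.16, 196 and 4.57 CPM against 12.7, 12.2 and 123 CPM. Antigen presentation had the same 2 high libraries: H2-K1, a class I heavy chain, at 84.5, 1430 and 86.9 CPM against 97.3, 135 and 690 CPM, B2m, its light chain, at 232, 2568 and 242 CPM against 319, 282 and 1383 CPM, H2-Aa, a class II chain, at 1.58, 242 and 3.71 CPM against 5.53, 7.56 and 117 CPM, and Cd74, the invariant chain, at 9.27, 707 and 11.9 CPM against 14.2, 22.8 and 275 CPM. Therapy replicate 2 was above the remaining low libraries in Gbp2, Cxcl9, H2-Aa and Cd74, at 21.7 CPM in Gbp2 where those stood between 5.25 and 6.29 CPM. Reads of near-identical H2 genes can be split in counting, so the value of H2-K1 is uncertain.

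T cell genes were highest in the same libraries, IgG replicate 2 and therapy replicate 3. Cd8a, the co-receptor of cytotoxic T cells, stood at 0.105, 3.3 and 0.215 CPM under IgG and at 0.166, 0.11 and 2.12 CPM under therapy. Gzmb, granzyme B, stood at 0.0527, 27.1 and 0 CPM against 0.221, 0.164 and 10.3 CPM, and Ifng, interferon-gamma itself, at 0, 2.48 and 0 CPM against 0.0553, 0 and 2.85 CPM. Cd3e, a chain of the T cell receptor complex, stood at 0, 3.25 and 0 CPM against 0.0553, 0.0548 and 2.07 CPM, and Prf1, perforin, at 0, 7.23 and 0 CPM against 0, 0.0548 and 3.87 CPM. In the 4 low libraries most of these genes had 0 to a few reads, so differences among those were not detectable at this depth. Over T cell, cytotoxic, interferon and antigen presentation genes together, 90 of 97 had IgG replicate 2 and therapy replicate 3 above the other 4 libraries (92.8%). The summed level of the 20 T cell genes was 22.03 to 79.8 CPM under IgG and 17.97 to 57.6 CPM under therapy. Bcl11b, whose order of libraries was that of the neuronal genes, is among them. It gave 7.04 of the 22.03 CPM in IgG replicate 3, so the sum is not of T cells alone. The targets of the antibodies were low throughout: Pdcd1, which encodes PD-1, stood at 0.0527, 2.63 and 0.161 CPM against 0.111, 0.164 and 1.2 CPM, and Ctla4 at 0, 1.34 and 0 CPM against 0, 0.0548 and 0.414 CPM. Both are read from the cells' RNA and do not measure the antibodies. Cd274, the PD-1 ligand PD-L1, stood at 7.42, 75.7 and 8.86 CPM against 8.52, 9.64 and 70.4 CPM.

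Other immune genes varied. Cd4, the helper T cell co-receptor, stood at 0.474, 1.81 and 0 CPM against 0.83, 0.657 and 1.01 CPM, and Foxp3, the regulatory T cell factor, had 21 reads against 14. Lower without overlap were 2 of 20 T cell genes, 2 of 12 checkpoint receptor genes and 1 of 15 cytotoxic genes, against 14.4% of all genes. Lat, an adaptor of the T cell receptor, stood at 2.63, 4.7 and 3.38 CPM against 1.44, 2.63 and 2.4 CPM (log2 fold change -0.73 ± 0.40). Its lowest IgG and highest therapy values both round to 2.63 CPM, so the groups barely separate. Layn, a hyaluronan receptor, was lower in all 3 therapy libraries, at 1.69, 1.34 and 1.4 CPM against 0.608, 0.712 and 0.737 CPM. Cst7, a cystatin of cytotoxic cells and of activated microglia, did not overlap either (-2.32 ± 1.21). Ptprc, the pan-leukocyte antigen CD45, stood at 2.53, 38.4 and 3.01 CPM against 2.88, 5.48 and 19.5 CPM. Ccr2, a receptor of monocytes, stood at 0.79, 30.4 and 0.698 CPM against 1.27, 5.31 and 12.3 CPM. Of the adhesion molecules of inflamed vessels, Vcam1 stood at 4.63, 10.5 and 3.44 CPM against 2.21, 1.37 and 12.3 CPM and Icam1 at 1.69, 18.3 and 2.2 CPM against 2.6, 3.29 and 10.9 CPM. C1qa, a complement subunit of macrophages and microglia, stood at 24.9, 114 and 29 CPM against 15.7, 15.7 and 41.8 CPM, and C3, the central complement component, had a log2 fold change of -0.68 ± 0.50.

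**Figure D4:**
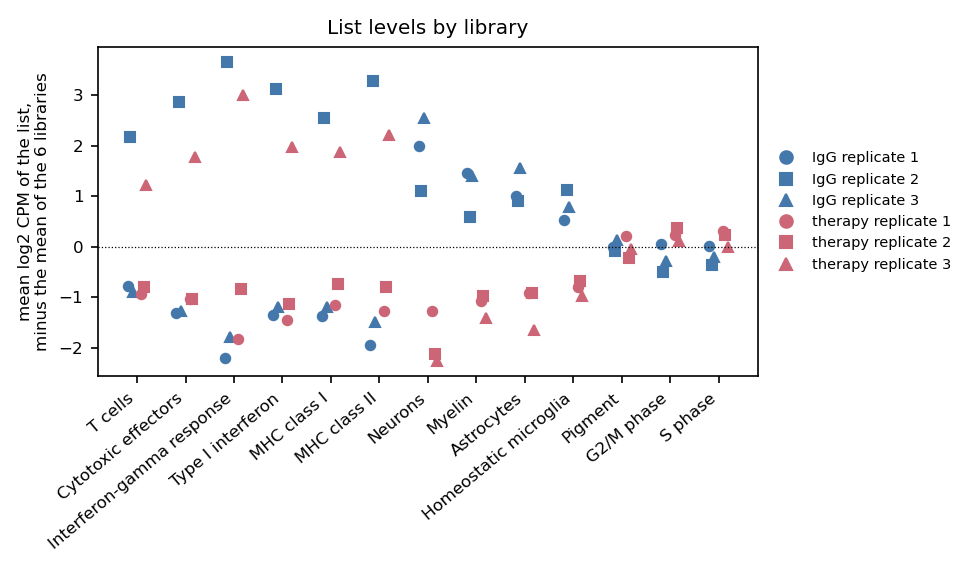
Mean log2 CPM of the genes of 13 lists in each library, minus the mean of the 6 libraries for that list. The brain lists separate the IgG from the therapy libraries, the G2/M list does so by little, and the T cell, interferon and MHC lists place IgG replicate 2 and therapy replicate 3 above the other 4.

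Genes of oxygen supply varied within the therapy group rather than between groups. Vegfa, the main vessel growth factor, stood at 142, 115 and 130 CPM under IgG and at 38.6, 197 and 80.5 CPM under therapy, and Bnip3, a mitophagy receptor induced by hypoxia, at 258, 227 and 135 CPM against 69.2, 336 and 112 CPM. Slc2a1, the glucose transporter, stood at 248, 227 and 182 CPM against 102, 400 and 129 CPM. Therapy replicate 1 was the lowest and therapy replicate 2 the highest of the 6 libraries in all 3 genes, and 0 of 15 hypoxia genes were free of overlap. Fos, an immediate early gene, was highest in therapy replicate 2 as well, at 60.5 CPM beside 13.2 and 15.9 CPM in the other therapy libraries and 27.9, 29.6 and 27.9 CPM under IgG. Egr1, another immediate early gene with high levels in active neurons, was lower in all 3 therapy libraries, at 11.4, 8.67 and 17.6 CPM against 4.42, 6.25 and 4.7 CPM. Hbb-bs, an adult beta globin, stood at 109, 8.72 and 31.1 CPM against 4.15, 15.3 and 0.921 CPM with overlap.

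The effect of therapy was then set against the effect in mice that also carried an extracranial tumor. The 2 comparisons share no library, and the difference between the effects passed an adjusted p of 0.05 in edgeR's pooled fit for 3505 genes. The effect without the extracranial tumor was the lower of both for 1924 (12.1%) and the higher for 1581 (9.93%). This count is fragile: it was 0 when any of 8 libraries was left out, namely IgG replicate 2 or 3 or any therapy library of the intracranial-only mice, or IgG replicate 1 or therapy replicate 2 or 3 of the mice with both tumors. The smallest adjusted p was then 0.0526 to 0.0669. Without any other library, it ran from 2448 to 4367.

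**Figure D5:**
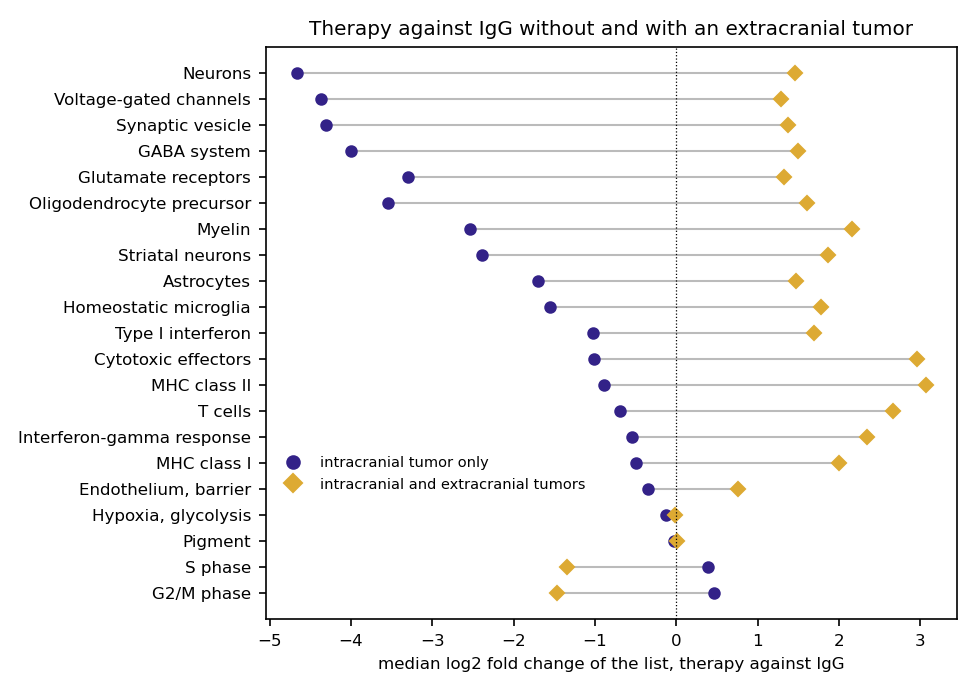
Median log2 fold change of therapy against IgG for 21 lists, in mice with the intracranial tumor only (circles) and in mice with both tumors (diamonds). The brain lists lie below 0 in the first and above 0 in the second, the cell division lists the reverse, and the pigment list near 0 in both.

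The list medians of brain genes had opposite signs in the settings, but few of the genes passed in mice with both tumors by themselves, 6 of 158 as higher in edgeR's pooled fit (1.24% of all genes did). All 17 neuronal genes passed the test of the difference (22% of all genes did, in either direction). Their list median was -4.66 without and 1.47 with the extracranial tumor. For Snap25 the effects were -5.94 ± 1.39 and 1.41 ± 1.07 (adjusted p = 0.349 for the second in edgeR's pooled fit). For Gfap they were -3.71 ± 0.73 and 1.83 ± 0.67 (adjusted p = 0.0966 for the second, in the same edgeR fit). Among myelin genes 15 of 17 passed (medians -2.53 and 2.16), among astrocyte genes 12 of 17 (-1.70 and 1.47) and among homeostatic microglia genes 9 of 12 (-1.55 and 1.78). The both-tumor IgG replicate 2, which stood apart, was itself low in neuronal genes, with a mean log2 CPM of 0.796 over the list beside 4.78 and 5.195 in the other IgG libraries of its group. Without it, 2448 genes passed, 2336 of them among the 3505.

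Cell division genes differed in the other direction: all 20 G2/M genes passed (22% of all genes did, in either direction). Their medians were 0.463 without and -1.47 with the extracranial tumor. Of 20 S phase genes 17 passed, with medians of 0.386 and -1.35. In mice with both tumors 24 of the 40 passed as lower, against 4.14% of all genes. For Mki67 the effects were 0.47 ± 0.39 and -1.56 ± 0.39, and for Top2a 0.57 ± 0.30 and -1.31 ± 0.31. Pigment genes did not differ detectably (0 of 16 passed in edgeR's test, 2 at an unadjusted p under 0.05, medians -0.033 and 0.010), nor did the genes of interferon-gamma response, type I interferon response and MHC class I and II, of which 0 of 62 passed in edgeR's test, with 3 at an unadjusted p under 0.05 and list medians of 1.69 to 3.07 with the extracranial tumor. In those lists, the 2 high libraries described above set the spread of the intracranial-only groups. The genes with the smallest p-values of the difference were, on the lower side, Ccl11, an eosinophil chemokine (25 reads under IgG and 3 under therapy without the extracranial tumor), Adora2a (a difference of -4.22 ± 0.60 on the log2 scale), Prkd1, a protein kinase D (56 and 3 reads), Nts, neurotensin (21 and 0 reads), and Gstp2, a glutathione transferase (-1.03 ± 0.16). On the higher side they included Recql, a DNA helicase (0.89 ± 0.14), and Pms1, a mismatch repair protein (1.21 ± 0.21).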

How the data were processed

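RNA of 12 whole tumors was sequenced, 3 for each of 4 groups. Per the submitters' processing notes, which name tools without their order, Bowtie2 2.2.3, TopHat2 2.0.12 and HTSeq 0.6.1 were used with GRCm38 (mm10). The authors deposited a table of raw read counts per gene and a table of FPKM values. The strand setting and annotation release of the counting are not given in the sources used here, so reads of overlapping and antisense genes cannot be told apart.

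From the counts, genes were kept with filterByExpr of edgeR 4.0.16 (minimum count 10, minimum total 15), scaled by TMM and tested by quasi-likelihood with 4 group means over 12 libraries and Benjamini-Hochberg adjustment at 0.05. The authors' FPKM values gave levels per length and alternatives in limma 3.58.1. Other alternatives were RLE factors, no filter, the 6 libraries alone, DESeq2 1.42.0, voom, robust estimation and leaving out each library. The count of genes without overlap was also taken without IgG replicate 2, which was chosen after seeing the data. Gene names came from GENCODE M21 and promoter windows from RefSeq (GRCm38.p6). The scripts were tested on simulated data.

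The libraries, gene lists and tests were chosen with earlier results of these data known. Genes were named by rule: up to 12 per direction with the largest fold change among those at an unadjusted p under 0.05, a group mean of 1 CPM and no overlap; the first 4 members and the 3 smallest p-values of each list described; and the 5 smallest p-values per direction for the difference between settings. The rules by fold change and by difference left out gene models with number or clone names, pseudogenes, receptor gene segments and mitochondrially encoded genes. Other names were chosen after their values were seen. With total reads from 18427495 to 22294182, 1 CPM is worth about 20 reads; intervals of read ratios cover counting error only. Each p-value sets a fitted difference between groups against the spread between libraries, which the main fit pools over all 12.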

Additional observations from a re-analysis of the deposited data

Results flagged for a closer look

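Each result here was picked out because the effect of therapy differed between mice with the intracranial tumor only and mice with both tumors, by edgeR's test of the difference itself. Over all genes, 3505 of 15925 passed (22%). Of the 131 genes followed under every setting, 80 passed. Some of the 131 were named for small p-values, also of this test, so their share cannot be compared with that of all genes. Of the 80, 13 had 3 or fewer reads in the therapy group, where a fitted fold change depends on the prior count and is not given. The other 67 had adjusted p-values from 0.0321 to 0.0499, 47 with a difference below 0 and 20 above. Values are log2 differences ± SE, the effect with the intracranial tumor only minus the effect with both tumors. As stated in the report, leaving out any of 8 libraries brought the number of genes past the threshold to 0.

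Neuronal and synaptic genes below 0 were Snap25 (-7.35 ± 1.74), Syt1 (-6.98 ± 1.86), Rbfox3 (-6.84 ± 1.6), Tubb3 (-1.91 ± 0.34), Map2 (-3.35 ± 0.9), Cplx1 (-7.37 ± 1.61), Syn1 (-6.66 ± 1.56), Grin2a (-7.25 ± 1.46), Camk2a (-6.94 ± 1.84), Gad1 (-5.38 ± 1.36), Kcna2 (-7.29 ± 1.68), Egr1 (-3.42 ± 0.73) and Cx3cl1 (-4.38 ± 1.17). Striatal genes below 0 were Ppp1r1b (-5.84 ± 1.3), Adora2a (-4.22 ± 0.6), Adcy5 (-5.57 ± 1.1) and Bcl11b (-5.65 ± 1.29). Myelin, oligodendrocyte and precursor genes below 0 were Mag (-7.10 ± 1.36), Mobp (-8.43 ± 1.83), Olig1 (-8.17 ± 1.71), Bcas1 (-5.53 ± 1.21) and Pdgfra (-2.93 ± 0.76). Astrocyte genes below 0 were Gfap (-5.54 ± 0.99), Aqp4 (-4.08 ± 0.66), Slc1a2 (-7.53 ± 1.7), Slc1a3 (-7.32 ± 1.58), Mlc1 (-7.62 ± 1.65), Clu (-4.60 ± 1.03), S1pr3 (-2.86 ± 0.45), Osmr (-1.67 ± 0.27) and Serpina3n (-2.86 ± 0.73).

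Microglia, macrophage and complement genes below 0 were Sall1 (-5.74 ± 1.24), Siglech (-5.62 ± 1.46), P2ry12 (-3.07 ± 0.88), Cx3cr1 (-4.03 ± 1.28), Tmem119 (-3.18 ± 1), Cd68 (-2.14 ± 0.56), C1qa (-3.64 ± 1.11) and C3 (-3.10 ± 0.72). Vessel genes below 0 were Cldn5 (-3.59 ± 0.92), Ackr1 (-5.21 ± 1.41) and Pecam1 (-1.11 ± 0.23). Remaining genes below 0, of several kinds, were Foxp3 (-3.02 ± 0.86), Layn (-2.57 ± 0.48), Lat (-2.26 ± 0.57), Cst7 (-5.28 ± 1.64) and Gstp2 (-1.03 ± 0.16).

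Cell division genes above 0 were Mki67 (2.03 ± 0.55), Top2a (1.88 ± 0.43), Ccnb1 (2.35 ± 0.55), Cdc20 (2.06 ± 0.54), Cenpe (1.71 ± 0.38), Tpx2 (1.76 ± 0.42), Birc5 (1.71 ± 0.52), Mcm2 (1.85 ± 0.49), Mcm4 (1.66 ± 0.38), Fen1 (1.51 ± 0.42), Gins2 (1.38 ± 0.34) and Atad2 (1.80 ± 0.39). Other genes above 0 were Angptl2 (1.80 ± 0.36), Emp1 (1.30 ± 0.38), Hspg2 (1.84 ± 0.41), Fads2 (1.41 ± 0.35), Srebf2 (1.12 ± 0.33), Gjc3 (0.93 ± 0.3), Pms1 (1.21 ± 0.21) and Recql (0.89 ± 0.14).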

How the results depend on the processing

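The number of genes past the threshold depended on how the spread was estimated: 0 in the pooled fit, 839 from the 6 libraries alone and 1030 with DESeq2, and 0 to 1002 when 1 library was left out, 1002 being the value without the both-tumor IgG replicate 2. It was 0 with RLE size factors, with no filter, with voom, on both FPKM scales and with robust estimation. The number for the difference between settings was 3505, 4954 with DESeq2, 1584 with voom and 0 to 4367 when 1 library was left out. The counts of genes without overlap kept within 1.5 times under RLE factors (2225 lower, 1631 higher) and library totals (2587 lower, 973 higher). Depth limits genes such as Cd3e, Prf1 and Gzmb, which had 0 to a few reads in 4 of the 6 libraries. No paired analysis was possible because the labels give no replicate number that pairs samples across groups.

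Of the 131 genes followed, 93 kept the sign of their log2 fold change under every setting and 38 did not, with the cause not tested. Values for genes with few reads left, such as Cd3e, Prf1, Ctla4 and Ifng, depend on the prior count and are no bound. When each of the 12 libraries was left out in turn, the value ran for Sox10 from -0.012 to 0.059, Pmel from -0.22 to 0.066, Dct from -0.24 to 0.009, Tyr from -0.17 to 0.056, Vegfa from -1.11 to 0.10, Bnip3 from -1.18 to 0.12, Fos from -0.96 to 0.42, Cd8a from -3.12 to 2.31 and Cd4 from -0.45 to 1.79. It ran for Foxp3 from -1.05 to 0.013, Pdcd1 from -2.78 to 2.18, Ctla4 from -3.80 to 4.78, Gzmb from -5.56 to 6.79, Ifng from -4.67 to 7.32, Cd274 from -1.80 to 1.86, Cxcl9 from -4.23 to 5.29, Cxcl10 from -2.54 to 2.85 and Gbp2 from -3.84 to 4.77. The range was for Isg15 from -3.61 to 1.93, Ifit1 from -3.16 to 2.11, H2-K1 from -2.25 to 1.84, B2m from -1.80 to 1.49, H2-Aa from -3.71 to 4.04, Cd74 from -3.77 to 3.30, Vcam1 from -1.81 to 0.40, Icam1 from -1.37 to 1.53 and C3 from -1.05 to 0.012. For the next genes it was Ptprc from -1.85 to 1.75, Syt4 from -0.063 to 0.10, Scn8a from -0.19 to 0.11, Gja1 from -0.055 to 0.26, Cd3e from -4.21 to 6.92, Prf1 from -6.21 to 7.75, Ccr2 from -1.75 to 3.08, Lyz2 from -1.23 to 0.32 and Cd68 from -0.58 to 0.26. The last ranges were Mitf from -0.28 to 0.089 and Slc2a1 from -0.91 to 0.27. In the fit of 6 libraries alone, the value was -0.005 for Sox10 and -0.006 for Syt4. On the log2(FPKM + 1) scale, the value was -0.025 for Sox10, -0.31 for Fos, 0.003 for Cd274, 0.086 for Cxcl9, 0.28 for Cxcl10, 0.37 for Gbp2, 0.37 for H2-Aa, -0.024 for Syt4 and 0.01 for Ccr2. On the log2(FPKM + 0.1) scale, the value was -0.025 for Sox10, -0.33 for Fos, 0.18 for Gzmb, 0.022 for Cd274, 0.59 for Cxcl9, 0.35 for Cxcl10, 0.43 for Gbp2, 0.53 for H2-Aa, 0.012 for Cd74, 0.071 for Icam1, -0.024 for Syt4, 0.082 for Cd3e and 0.51 for Ccr2. With voom, the value was -0.30 for Fos, 0.067 for Ctla4, 1.15 for Gzmb, 0.14 for Cd274, 0.95 for Cxcl9, 0.45 for Cxcl10, 0.56 for Gbp2, 0.67 for H2-Aa, 0.10 for Cd74, 0.19 for Icam1, 0.075 for Ptprc, 0.96 for Cd3e, 0.39 for Prf1 and 0.79 for Ccr2. Without a filter on low counts, the value of Scn8a rounded to 0.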

Other observations

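Some lists stood outside the comparisons above. Heat shock and unfolded protein genes had a median log2 fold change of -0.082, and apoptosis and p53 genes one of -0.013, beside -0.026 over all genes. Skin keratinocyte genes summed to 1.16, 0.671 and 1.34 CPM under IgG and to 0.166, 0.164 and 0.0461 CPM under therapy. Both genes of the 2 tested were lower without overlap, against 14.4% of all genes. They are near the floor, such as Lor with 34 reads against 2, and 0 were tested in the 6-library fit. Skeletal muscle genes summed to 3.79, 3.56 and 3.98 CPM under IgG and to 3.48, 3.12 and 2.90 CPM under therapy. Of 4 tested, 3 were lower without overlap and 1 had an unadjusted p under 0.05 in edgeR's pooled fit. The median of that list was -0.896 in the pooled fit but 0.25 in the 6-library fit, where 2 of the genes were tested.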
